A study of Mus musculus with 20 samples.

Results

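The ciliary body is the ring of tissue behind the iris that produces the aqueous humour, and its immune cells were sampled by sorting CD45+ cells of unlesioned eyes, one cell to a well. The macrophages described here are the 111 wells that the authors' annotation of the eye compartments calls macrophages and that come from ciliary body libraries, of 429 wells annotated in all. The 4 ciliary body libraries, numbered 1 to 4, held 18, 21, 30 and 42 of them. They were compared with the 73 other annotated wells of the same libraries, whose annotation names monocytes, granulocytes and lymphocytes as one joint class, and more briefly with 121 macrophages of the cornea. All animals were C57BL/6 mice of 8 weeks with no lesion. The design speaks of about 6 mice in 3 experiments, and the labels do not tie a library to a mouse. Libraries 1 and 2 share the prefix P3 in their titles, and libraries 3 and 4 share the prefix P4, so 2 library pairs stand for this tissue.

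Macrophages are resident phagocytes that clear dying cells, sample their surroundings and, where they carry MHC class II, present peptides to CD4+ T cells. At the borders of nervous tissue, along vessels and in the meninges, they are typically recognised by Pf4, Mrc1, Ms4a7 and Apoe. Dendritic cells share MHC class II and much of the sorting phenotype with macrophages. They depend on the receptor Flt3 and are usually told from macrophages by Zbtb46, Xcr1, Clec9a or Cd209a together with low Csf1r and C1q.

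The 111 macrophages held 646192 transcripts in the genes of the authors' eye table, with a median of 5064 per well (range 1032 to 14535) and of 2071 detected genes. The wells of the joint class had a median of 3356 transcripts. Per library the summed counts ran from 107828 to 205056 transcripts for macrophages and from 65739 to 86608 for the joint class, and 109 of the 111 macrophage wells had at least 1000 transcripts and at most 25% mitochondrial ones. No 2 annotated wells held identical counts. The macrophages sat in 87 well positions, 20 of which were used in more than 1 library. Macrophages made up 60.0, 58.3, 57.7 and 63.6% of the annotated wells of libraries 1 to 4, and 60.3% over all 184 (95% Wilson interval 53.1 to 67.1%, which covers counting error only). The share was nearly level across libraries, and with a sort of this kind it describes the wells the authors kept, not the tissue.

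The label was checked first with the 6 markers Pf4, Mrc1, Ms4a7, F13a1, Apoe and H2-Aa. Levels are the transcripts summed over the wells of a class, scaled to a total of 1000000 (CPM). The authors drew their classes from the same counts, so differences between classes and between clusters are described here and not tested. Ms4a7, a membrane protein of tissue macrophages, stood at 557, 335, 343 and 293 CPM in the macrophages of libraries 1 to 4 and at 11.9, 60.9, 189 and 23.1 CPM in the joint class. The 4 macrophage values lay above all 4 of the joint class, with means of 382 ± 118.9 and 71.3 ± 81.5 CPM (SD, n = 4 libraries). H2-Aa, the MHC class II alpha chain, was likewise separate, at 26343, 21559, 17915 and 16228 CPM against 12999, 6966, 6364 and 2440 CPM.

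The other 4 markers separated the classes less well or not at all. The chemokine Pf4 reached 381, 270, 127 and 151 CPM in macrophages and 95.2, 137, 67.6 and 0 CPM in the joint class. The mannose receptor Mrc1 reached 381, 230, 60.7 and 176 CPM against 143, 167, 67.6 and 0 CPM. Both had higher means in macrophages, but library 3 of the macrophages lay under library 2 of the joint class for each. Apoe, the lipid carrier, stood at 23386, 15777, 11553 and 14111 CPM in macrophages and 10443, 10642, 14302 and 3011 CPM in the joint class, and here too the groups overlapped. F13a1, the A chain of coagulation factor XIII, ran the other way, with 121, 26.3, 16.6 and 43.9 CPM in macrophages and 191, 137, 122 and 127 CPM in the joint class. Scaling by TMM, which allows for a few abundant genes, would put Apoe and Pf4 wholly above the joint class and would end the separation of F13a1. Apoe and H2-Aa transcripts were found in all 73 wells of the joint class, so their presence in a well marked no cell type at this depth. Pf4, in contrast, was found in 38 of 111 macrophage wells and in 10 of 73 wells of the joint class.

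**Figure D1:**
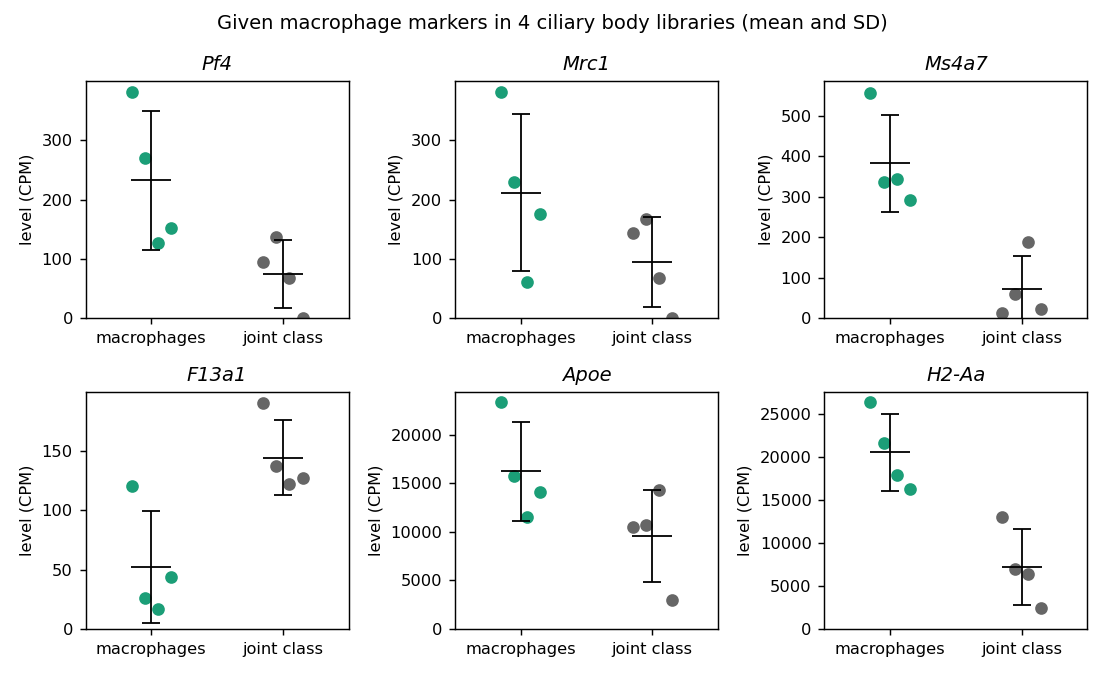
Level of the 6 given markers (CPM, linear axes from 0) in the macrophages and in the joint class of each of the 4 ciliary body libraries, with points for libraries 1 to 4 from left to right, a wide bar for the mean and whiskers for the SD. Ms4a7 and H2-Aa do not overlap between the classes, F13a1 lies lower in macrophages, and Pf4, Mrc1 and Apoe overlap.

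The authors' clusters divided these cells: 5 clusters held at least 10 macrophages each, and 5 wells fell in clusters 2, 6, 9 and 16. Cluster 1 held 25 wells, cluster 3 held 23, cluster 7 held 21, cluster 8 held 17 and cluster 10 held 20. Their wells differed in depth, with median transcripts of 8486, 6217, 4240, 3285 and 4622 in that order, and the cluster sums ran from 65022 to 193083. The part of depth in the differences between clusters was not tested, except where counts of wells were repeated at an equal depth.

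Summed over its wells, Apoe stood at 4564 CPM in cluster 1, 1452 in cluster 3, 42324 in cluster 7, 40577 in cluster 8 and 16022 in cluster 10. The well medians kept that spread, at 2457, 1099, 43704, 36814 and 14718 CPM. Csf1r, the receptor for the growth factor that macrophages need, was at 358 and 327 CPM in clusters 1 and 3, and at 2477, 2327 and 1961 CPM in clusters 7, 8 and 10. C1qa, a chain of the complement starter C1q, was at 462 and 25.7 CPM against 2196, 2805 and 1773 CPM. Pf4 was at 20.7 and 6.41 CPM against 441, 770 and 253 CPM, Mrc1 at 67.4 and 44.9 CPM against 591, 308 and 141 CPM, and Ms4a7 at 82.9 and 12.8 CPM against 571, 1047 and 759 CPM. Clusters 1 and 3 therefore had low levels of every one of these genes. H2-Aa did not follow: it was at 24970 and 23047 CPM in clusters 1 and 3, 20219 in cluster 8, 18939 in cluster 10 and 5945 in cluster 7.

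A list of 10 dendritic cell markers (Flt3, Zbtb46, Cd209a, Xcr1, Clec9a, Itgax, Ccr7, Batf3, Itgae, Naaa) had the opposite pattern. Its summed level was 2069 CPM in cluster 1 and 2102 in cluster 3, against 220, 385 and 365 CPM in clusters 7, 8 and 10 and 703 CPM in the joint class. At least 1 transcript of the list was found in 23 of 25 wells of cluster 1 and in 23 of 23 of cluster 3, and also in 10 of 21, 13 of 17 and 15 of 20 wells of clusters 7, 8 and 10. With every well thinned to 1500 transcripts, which left out 2, 0, 2, 3 and 0 wells, the shares were 82.6, 82.6, 31.6, 57.1 and 25%, and 40% in the joint class. Pf4, Mrc1 or Ms4a7 was found in 36.0, 30.4, 85.7, 94.1 and 90.0% of wells, and in 26.1, 13, 78.9, 78.6 and 75.0% after thinning. The joint class gave 26.0% and, thinned, 15.7% for the same 3 genes, so clusters 1 and 3 lay near it and the other clusters far above it. Flt3 was found in 12 of 25 and 13 of 23 wells of clusters 1 and 3, in 1 of 20 wells of cluster 10 and in no well of clusters 7 and 8. As sums, clusters 1 and 3, with 48 of the 111 wells, thus go against the label, and they are called by their numbers and leading genes below. The list's members did not all follow its sum in cluster 3, where Cd209a and Ccr7 were the largest of them. Ccr7 was at 663 CPM there, with 55.5% of its transcripts from 1 well. Of 8 members 2 were at least 2-fold above the other macrophages, which include cluster 1. Another 3 were at least 2-fold below, against 11.3 and 17% of all genes. The sum was 920 CPM in the P3 wells of cluster 3 and 2304 CPM in its P4 wells. Single wells did not all follow the sums. In 8 of 25 wells of cluster 1 and 1 of 23 of cluster 3 the C1q genes made up at least 0.487% of transcripts, the lowest share in a well of cluster 10, a limit chosen after the data were seen. Of those 8 wells 6 held Pf4, Mrc1 or Ms4a7 and 7 held a transcript of the dendritic cell list, and Csf1r ran from 0 to 2758 CPM in them.

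**Figure D2:**
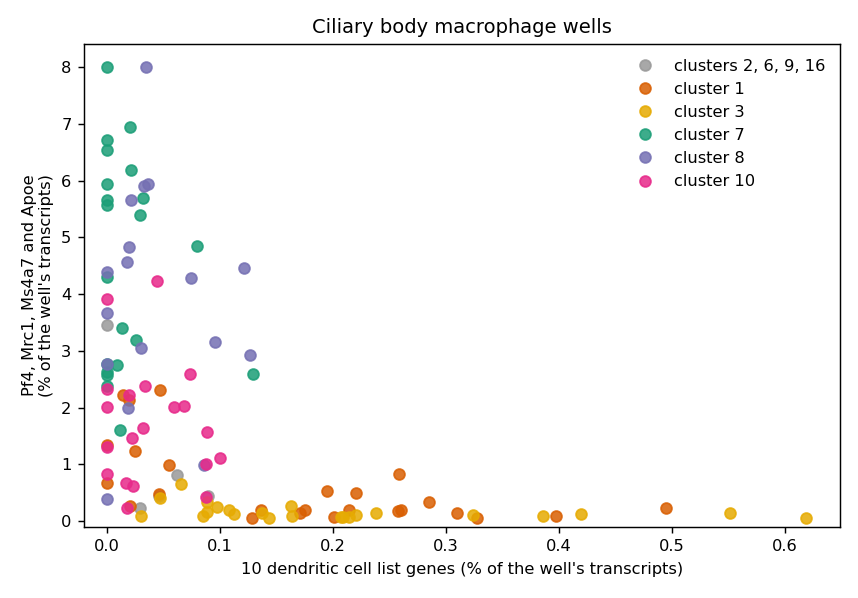
Each point is 1 of the 111 ciliary body macrophage wells, with the share of its transcripts from the 10 genes of the dendritic cell list on the x axis and from Pf4, Mrc1, Ms4a7 and Apoe on the y axis (both in percent, linear), coloured by the authors' cluster. Wells of clusters 7 and 8 lie high along the y axis (medians 4.85 and 4.28%), those of cluster 10 lie between (1.60%), and those of clusters 1 and 3 lie low (0.27 and 0.13%) and extend to the right.

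The mix of clusters differed between the library pairs. Cluster 1 made up 44.4, 33.3, 20 and 9.52% of the macrophages of libraries 1 to 4, and cluster 3 made up 5.56, 9.52, 23.3 and 31.0%. Cluster 10 was at 0, 14.3, 23.3 and 23.8%, where 0 of 18 wells allows a share of up to 16.7%, counting error only. Cluster 8 was at 27.8, 19.0, 10 and 11.9%. Clusters 1 and 8 thus made up more of both P3 libraries than of either P4 library, and clusters 3 and 10 less. Cluster 7, at 16.7, 19.0, 13.3 and 23.8%, overlapped between the pairs. No exact test of 2 libraries against 2 can reach 0.05, and animal, experiment and plate cannot be told apart.

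**Figure D3:**
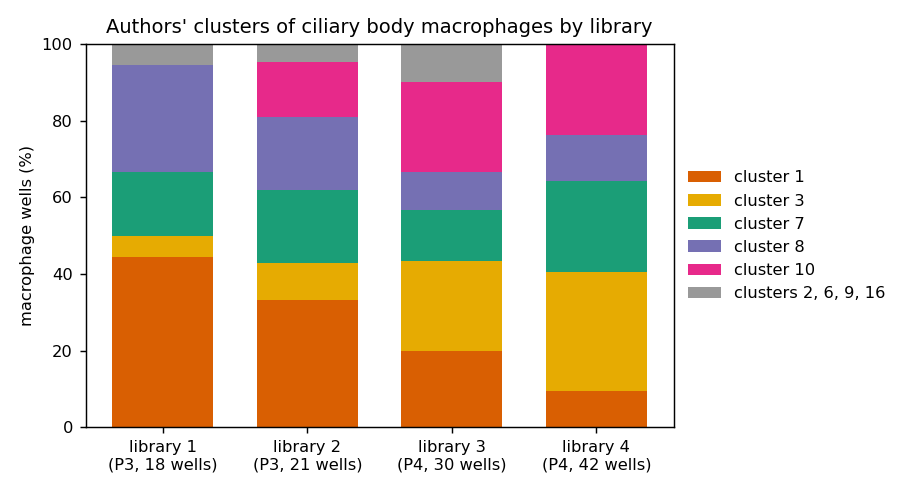
Share of the macrophage wells of each ciliary body library (percent, stacked to 100) that fell in each of the authors' clusters, with libraries on the x axis, their pair and number of wells below. Cluster 1 is larger in the P3 libraries (44.4 and 33.3%) than in the P4 libraries (20 and 9.52%), and cluster 3 is smaller there.

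Cluster 7 had high levels of macrophage and phagocyte genes. Of 4378 genes with at least 50 CPM in the cluster or in the other macrophages, 24.1% were at least 2-fold higher in cluster 7 and 10.4% at least 2-fold lower. Of the scavenger and dying-cell uptake receptors 9 of 11 were higher, of the lysosome list 11 of 16, of the microglia list 8 of 9, and of the pan-macrophage list 7 of 11. Of 9 MHC class II genes 8 were lower. The aspartic protease Ctsd, a lysosomal enzyme, was at 2543 CPM against 130 CPM in the other macrophages, 19.6-fold higher, with transcripts in 17 of 21 wells. Hmox1, which breaks down haem, was at 551 CPM, 6.27-fold higher. Fcrls, a gene of microglia and related macrophages, was at 932 CPM, and the adhesion molecule Vcam1 was at 371 CPM, 9.64-fold higher. The receptor Gpr84 stood 10.3-fold higher, the calcineurin regulator Rcan1 25-fold, the coreceptor Cd4 9.72-fold, Pmp22 9.77-fold and the GTPase Gbp7 6.47-fold. One well supplied 61.6% of the Gbp7 transcripts, whereas no well supplied more than 37.9% for the other 9 leading genes.

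Cluster 7 also held Tmem119, a microglial surface protein, at 421 CPM in 15 of 21 wells, and P2ry12, a microglial purine receptor, at 380 CPM in 11 wells. Control microglia held 1839 CPM of Tmem119 and 3356 CPM of P2ry12. The whole microglia list summed to 5467 CPM in cluster 7 and 27372 CPM in the control microglia, with 3310 CPM in cluster 8 and 3123 CPM in cluster 10. In 13 of the 16 wells of cluster 7 with a transcript of Tmem119 or P2ry12, a transcript of Pf4, Mrc1 or Ms4a7 was found in the same well. Over the whole cluster 18 of 21 wells held 1 of these 3 genes. The same count was 12 of 12 wells in cluster 8 and 9 of 11 in cluster 10, so it was not particular to cluster 7. Among microglia, Mrc1 and Ms4a7 were at 0 CPM. Wells of clusters 7, 8 and 10 thus carried both sets of genes, with the microglia list well under its level in microglia.

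Cluster 8 shared high Apoe and C1q with cluster 7 and kept its MHC class II. In it 21.3% of 4012 genes were at least 2-fold higher than in the other macrophages and 14.2% at least 2-fold lower. Of the complement list 7 of 9 were higher, of the interferon list 8 of 14 and of the border and perivascular list 7 of 12, while 2 of 9 MHC class II genes were lower. In cluster 7 the first 3 lists had 4 of 8, 3 of 12 and 8 of 12 genes higher. The interferon list summed to 2862 CPM in cluster 8, near the 2834 CPM of cluster 7 and the 2721 CPM of the joint class. The named genes were Trem2, a lipid-sensing receptor of phagocytes, at 477 CPM and 4.40-fold higher, Ms4a7 at 1047 CPM and 3.69-fold, Apoe at 3.24-fold, C1qa at 2805 CPM and 3.07-fold, and the fractalkine receptor Cx3cr1 at 1941 CPM and 3.07-fold. Dhrs3, St3gal6, the ribonuclease Rnase4, Cmah and Txnip followed at 2.98-fold to 4.27-fold. Trem2 and Cx3cr1 were nearly as high in cluster 7, at 451 and 1834 CPM, and low in cluster 1, at 36.3 and 202 CPM.

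The pairs of libraries did not match within cluster 8. Pf4 was at 1402 CPM in its P3 wells and 124 CPM in its P4 wells, and the scavenger receptor Cd163 was at 244 and 0 CPM. The lymphatic and perivascular marker Lyve1 was at 122 and 0 CPM in the same order, with transcripts in 2 of 17 wells. C1qa differed little, at 2805 and 2804 CPM. One well of cluster 8, from library 4, held 81.9% of the mast cell list's transcripts among all macrophages, and these were 11.1% of that well's transcripts. The mast list stood at 4373 CPM in the cluster, that well included, and at 37.5 to 161 CPM in the other 4 clusters.

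Cluster 10 had high levels of chemokines and immediate early genes beside the macrophage genes. Of 3836 genes 12.6% were at least 2-fold higher than in the other macrophages and 15.3% at least 2-fold lower. Of 11 chemokines 7 were higher, with the list's sum at 30009 CPM against 2246 to 9603 CPM in the other 4 clusters, and 8 of 17 immediate early genes were higher. Ccl4, which draws T cells and monocytes, was at 10827 CPM, 6.69-fold above the other macrophages, with a well median of 11802 CPM and a range of 0 to 27512 CPM. Its relative Ccl3 was at 6234 CPM and 7.39-fold higher. Cxcl2, a neutrophil attractant, was at 10154 CPM and Tnf at 3802 CPM, each with transcripts in 20 of 20 wells.

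Mmp12, the macrophage elastase, was at 1240 CPM in cluster 10, 13.1-fold above the other macrophages, but in only 11 of 20 wells. Il2ra, the alpha chain of the interleukin 2 receptor, was at 600 CPM and 8.74-fold higher, and 9 of the 11 wells with Mmp12 held it too. In the other 9 wells it was found once. Cluster 10 was thus uneven for this pair of genes, though the counts per well are small. Plau, the urokinase, was 8.84-fold higher, the cholesterol hydroxylase Ch25h 6.59-fold, the fusion receptor Dcstamp 5.89-fold, the immediate early factor Egr1 5.62-fold and Chka 5.44-fold. The heat shock gene Hspa1a stood at 1381 CPM in the P3 wells and 12272 CPM in the P4 wells.

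**Figure D4:**
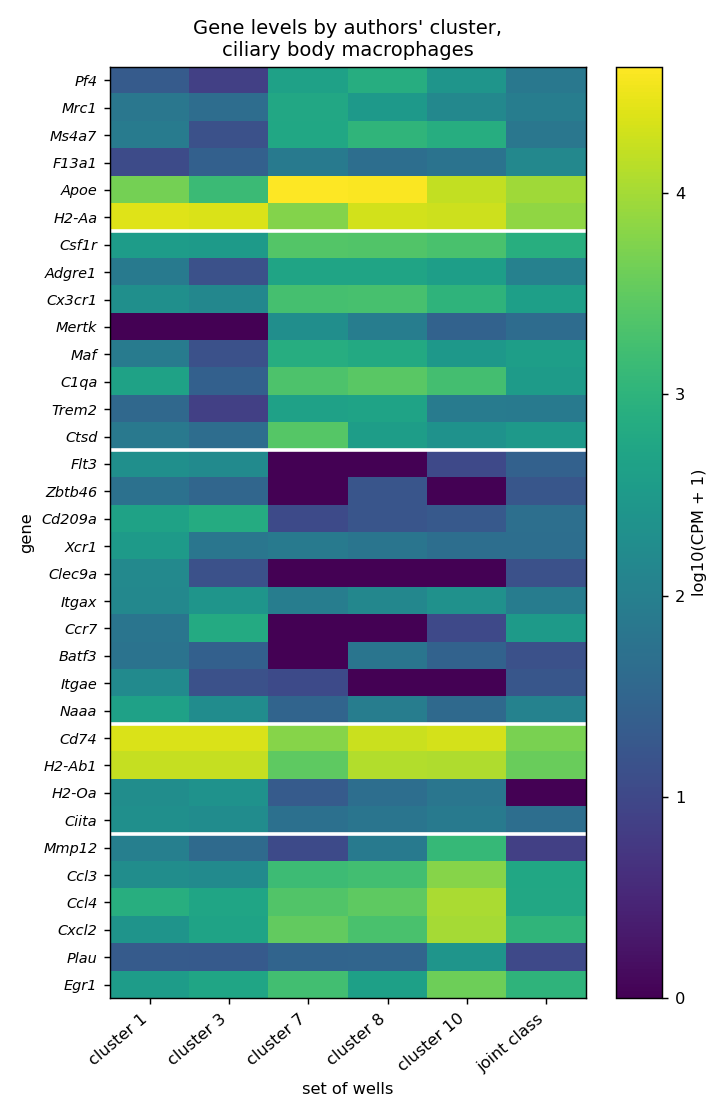
Level of marker and leading genes (rows, as log10 of CPM + 1, colour scale) in the macrophages of the 5 clusters and in the joint class (columns), with white lines between the given markers, macrophage genes, dendritic cell list, MHC class II genes and genes of cluster 10. Within a row, clusters 1 and 3 are darker than clusters 7, 8 and 10 for Csf1r and C1qa and brighter for Flt3 and Cd209a. Not all genes of the dendritic cell list do so: in cluster 3, 3 of 8 were at least 2-fold below the other macrophages. Mmp12 is brightest in cluster 10.

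Cluster 1 had few genes far above the rest. Of 3751 genes 7.86% were at least 2-fold higher than in the other macrophages and 14.7% at least 2-fold lower, with 7 of 10 dendritic list genes higher and 8 of 11 pan-macrophage genes lower. Xcr1, the chemokine receptor of cross-presenting dendritic cells, was at 332 CPM, and Clec9a, their receptor for dead cells, was at 150 CPM. Wdfy4, which is needed for cross-presentation, was at 565 CPM in 21 of 25 wells, 4.13-fold above the other macrophages. Itgae, the integrin chain CD103, was at 161 CPM and Irf8, a factor that specifies such cells, at 680 CPM, against 541 to 628 CPM in clusters 7, 8 and 10. In the joint class Xcr1, Clec9a and Wdfy4 were at 45.1, 12.9 and 93.5 CPM. The other leading genes were Flrt3, 10.6-fold higher with transcripts in 6 wells, the tight junction gene Cldn1 at 7.43-fold, Cxx1a at 5.16-fold, Itpr1 at 4.69-fold, Cd24a at 4.34-fold and Trim35 at 4.07-fold. Snrpd2, Nav1 and Rhoq lay between 3.13-fold and 3.29-fold.

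The wells of cluster 1 were not alike. Xcr1, Clec9a or Itgae was found in 10 of 25 wells and Cd209a, a lectin of another dendritic cell type, in 9, and only 2 wells had both. The other 8 wells had neither. Mmp12 was found in 7 wells, 5 of which held Pf4, Mrc1 or Ms4a7. Apoe ran from 482 to 23114 CPM over the wells, and C1qa from 0 to 3366 CPM with transcripts in 12 wells. Its P3 and P4 wells gave 119.1 and 222 CPM for Clec9a and 529 and 307 CPM for Cd209a. One well of library 4 held 77.8% of the melanocyte list's transcripts among all macrophages, which were 3.08% of that well's transcripts.

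Against the other macrophages, cluster 3 was low in macrophage markers and high in S100, annexin and monocyte genes. Of 3798 genes 11.3% were at least 2-fold higher than in the other macrophages and 17% at least 2-fold lower. Of the S100 and annexin list 7 of 10 genes were higher and of the monocyte list 3 of 3, while 8 of 8 microglia genes were lower. The monocyte list's sum, at 1021 CPM in cluster 3, was under the 3058 CPM of the joint class. Cd209a was at 694 CPM with transcripts in 17 of 23 wells, against 1 of 21, 1 of 17 and 2 of 20 wells in clusters 7, 8 and 10. Ccl22, a chemokine that dendritic cells and macrophages make to draw regulatory T cells, was at 675 CPM, 8.27-fold above the other macrophages. Anxa2, a membrane-binding annexin, was at 848 CPM in 21 wells, 8.65-fold higher. The intermediate filament gene Vim was at 3141 CPM, S100a4 at 1034 CPM and Il1b at 7743 CPM.

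Ccr7, the receptor that guides dendritic cells to lymph nodes, was at 663 CPM in cluster 3 and 25-fold above the other macrophages, but 1 well held 55.5% of its 103 transcripts. It was found in 11 of 23 wells, all of them in the P4 pair, where 20 of the 23 wells came from. Of these 11 wells 6 also held Ccl22. Areg was 12.6-fold higher, with 43.2% of its transcripts from 1 well, and the leukotriene receptor Ltb4r1 was 12.6-fold higher in 14 wells. Ddit4, AA467197, Plxnc1, Avpi1 and Plscr1 stood 6.29-fold to 11.9-fold higher. The corneal epithelium list summed to 2491 CPM in this cluster and to 82.9 to 723 CPM in the other 4, and its part in these values was not tested.

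A stricter view counted only genes with at least 20 transcripts in a cluster that were 2-fold higher pooled and higher in every library with at least 3 of its wells. This held for 45 of 1483 such genes in cluster 1 (3.03%), 166 of 1195 in cluster 3 (13.9%), 107 of 846 in cluster 7 (12.6%), 41 of 496 in cluster 8 (8.27%) and 80 of 795 in cluster 10 (10.1%). Cluster 3 was compared in libraries 3 and 4 only, and cluster 10 in libraries 2, 3 and 4.

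Proliferation genes were found in several clusters. Mki67, a marker of cycling cells, was found in 9, 11, 2, 2 and 5 wells of clusters 1, 3, 7, 8 and 10, and its level was 124, 295, 20, 30.8 and 262 CPM. In the macrophages of libraries 1 to 4 Mki67 was at 46.4, 184, 293 and 82.9 CPM, and in the joint class at 47.6, 15.2, 13.5 and 0 CPM. The groups overlapped by 1 library. Of the wells with Mki67, 7 also held Top2a, namely 2 in cluster 1, 3 in cluster 3 and 2 in cluster 10. The counts per well were small and wells of clusters 1 and 3 were the deeper ones.

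Against the joint class, most MHC class II genes were higher in macrophages. A gene was counted as apart where the 4 macrophage values lay all above or all below the 4 of the joint class and the means differed at least 2-fold. Of 4185 genes with at least 50 CPM in either class, 122 (2.92%) were apart and higher in macrophages and 273 (6.52%) apart and lower. That split depends on the scaling: TMM gave 247 higher and 140 lower, and totals over all genes of the library tables gave 123 and 130. The median log2 ratio of all genes was -0.24, 0.16 and 0.02 under the 3 scalings. Of 9 MHC class II genes 8 were higher, and 9 and 7 under the other scalings. The invariant chain Cd74 was at 25170, 18674, 18288 and 18263 CPM in macrophages and at 9031, 4035, 5825 and 1029 CPM in the joint class. H2-Ab1 was higher by 1.86 on the log2 scale, the peptide loaders H2-DMa and H2-DMb1 by 1.81 and 1.47, and the transactivator Ciita by 1.66. H2-Oa and H2-Ob, which temper peptide loading, are known mostly from B and dendritic cells. H2-Oa was at 74.2, 171, 138 and 117 CPM in macrophages and at 0 in all 4 libraries of the joint class, at least 12.9-fold higher if 3 transcripts are taken for the joint class. H2-Ob was at 147 ± 55.2 and 27.8 ± 16.4 CPM.

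Complement and chemokine genes differed in part. C1qa stood at 1524, 869, 929 and 1211 CPM in macrophages and 155, 426, 839 and 23.1 CPM in the joint class. C1qb and C1qc were higher by 1.08 and 1.37 on the log2 scale and the anaphylatoxin receptor C3ar1 by 1.74, which makes 4 of 9 complement genes higher, with C3 lower. Ccl4 was at 1511, 2987, 4441 and 2962 CPM against 477, 472, 1289 and 208 CPM. Cxcl16, a membrane-bound chemokine and scavenger, was at 808 ± 108 and 264 ± 115 CPM. Mmp12 was at 121, 290, 487 and 186 CPM against 0, 0, 27.0 and 0 CPM. The ratio of summed transcripts was 44.0 with a counting interval of 12 to 366, which covers counting error only. The joint class held 2 Mmp12 transcripts in all.

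The other leading genes of macrophages were Ccl22, 8.84-fold higher by the means, the costimulator Tnfsf9 at 591 ± 138 and 81.9 ± 43.3 CPM, Cd209a at 7.03-fold, Hepacam2 at 7.01-fold and Qpct at 6.40-fold. Tnip3, the cyclin Ccnd1, the membrane protease Mmp14, Slamf9 and the cytokine Il1a lay between 4.77-fold and 6.11-fold. Axl, a receptor for dying cells, was at 504 ± 139 and 161 ± 33.6 CPM. Several general macrophage genes were not apart: Csf1r was at 1204 ± 124 and 817 ± 267 CPM, Adgre1 at 227 ± 89.9 and 113.1 ± 72.6 CPM, and Cd68 at 383 ± 109 and 293 ± 124 CPM. Of 10 genes of the pan-macrophage list 1, Aif1, was apart, and 3 were under TMM and 2 with totals over all genes of the library tables.

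Lymphocyte and monocyte genes were lower in macrophages. Of 7 T and NK cell genes 6 were apart and lower, and of 7 monocyte genes 6. The joint class mixes cell types, so fewer cells of a type and less RNA per cell cannot be told apart in its sums. The cytotoxic granule gene Nkg7 was at 0 CPM in all 4 macrophage libraries and at 119.1, 853, 189 and 277 CPM in the joint class, at least 77.5-fold lower. Gzma, a granule protease, had 2 transcripts in macrophages and 227 in the joint class, a ratio of 236 with a counting interval of 64.7 to 1963. Ccl5 was at 14.9 ± 11.1 and 1151 ± 909 CPM, and Thy1 at 13.2 ± 9.08 and 312 ± 84.4 CPM. Klra10 was at 0 in macrophages and at least 41.4-fold lower, Gzmb was at 7.25 ± 9.39 and 315 ± 406 CPM, and Ms4a4b, Il2rb, Icos, Gimap4, Klrb1c and Ctsw had 1 or 2 transcripts in macrophages against 35 to 79 in the joint class. Ly6c2, the surface marker of inflammatory monocytes, was at 46.4, 125, 38.6 and 166 CPM in macrophages and at 608, 670, 948 and 1262 CPM in the joint class. Chil3 and Ace had 3 transcripts each in macrophages against 110 and 46, and Gda was at 8.90 ± 6.80 and 243 ± 157 CPM. Ccr2, the receptor by which monocytes leave the marrow, was not apart, at 308 ± 108 and 369 ± 184 CPM.

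Which genes set macrophages apart from the joint class depended on clusters 1 and 3, a split made after the data were seen. These clusters were picked out for low Apoe, Csf1r, C1qa, Pf4, Mrc1 and Ms4a7 and a high dendritic cell list. The direction in which Pf4, Apoe and Cd209a moved was therefore set by the choice. Without those clusters, 200 of 4395 genes (4.55%) were apart and higher and 317 (7.21%) apart and lower. With clusters 1 and 3 alone, 97 of 4173 (2.32%) were higher and 363 (8.7%) lower. Without them Pf4 was at 1006, 636, 225 and 294 CPM in libraries 1 to 4 and Apoe at 48356, 35384, 21715 and 25767 CPM, and both were apart and higher. With them alone Pf4 was at 14.7, 11.2, 32.6 and 0 CPM, and the mean of Apoe was 3559 ± 3482 CPM, under that of the joint class. Without the clusters 6 of 11 pan-macrophage, 4 of 9 complement and 8 of 16 lysosomal genes were higher, against 0 of 10, 0 of 9 and 0 of 16 in the clusters alone. For MHC class II the order was the reverse, 2 of 8 without them and 8 of 9 in them alone. Ccl22 and Cd209a, higher over all macrophages, were lower than in the joint class without the clusters, with log2 ratios of -1.30 and -1.75. Monocyte genes were lower in 6 of 7 either way.

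Transcripts of lists of other cell types were counted over all 111 wells. The fibroblast and stroma list held 34 transcripts, the endothelial list 10 and the T and NK cell list 45. The melanocyte list held 429 transcripts in 23 wells, most of them in the well of cluster 1 described above, and the photoreceptor list held 197 in 41 wells. The corneal epithelium list held 700 transcripts, 20.3% of them in 1 well, with 0 in libraries 1 and 2.

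The tissue label was not used to make the classes, so it could be tested. The ciliary body libraries carry the prefixes P3 and P4, however, and the cornea libraries P2 and P5. A difference of tissue therefore cannot be told apart from a difference of prefix, be it animal, experiment or plate. Ciliary body and cornea macrophages were compared as 2 pair sums each with edgeR's quasi-likelihood test. Of 4705 genes 167 (3.55%) passed an adjusted p of 0.05, with 50 (1.06%) higher and 117 (2.49%) lower in the ciliary body. The genes higher in the ciliary body included several that were high in clusters 1 and 3. H2-Oa was at 131 and 127 CPM in the ciliary body pairs and 24.8 and 14.6 CPM in the cornea pairs, a log2 difference of 2.78 ± 0.50 (SE, edgeR adjusted p = 0.00445). H2-Ob was at 181 and 122 against 34.7 and 29.1 CPM (edgeR adjusted p = 0.0109), the gut-homing integrin chain Itgb7 at 146 and 106 against 19.9 and 29.1 CPM (edgeR adjusted p = 0.0123), and Flt3 at 108 and 95.8 against 29.8 and 14.6 CPM (edgeR adjusted p = 0.0288). Vcam1, a leading gene of cluster 7, was at 92.3 and 88.1 against 24.8 and 4.86 CPM (edgeR adjusted p = 0.0288). Gcnt2 had 40 transcripts against 3, a ratio with a counting interval of 2.68 to 42.5. The gene models Gm8797, Gm44121, Gm9844 and Gm42503 completed the leading 10.

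Members of the lists that passed the test were few. Ctsd was higher by 1.65 on the log2 scale, the immunoproteasome subunit Psmb8 by 1.68 and the lectin Clec10a by 2.01. The monocyte attractant Ccl2 was lower, at 181 and 93.2 against 754 and 816 CPM, as were Ccl9, Clec4n, Anxa2 and S100a10. Of the 5 given markers tested, edgeR called 0 and DESeq2 called 0, with 1 under an unadjusted p of 0.05 by either. Apoe was at 18937 and 12913 against 10060 and 7878 CPM (edgeR adjusted p = 0.168), and Mrc1 at 292 and 122 against 402 and 330 CPM (edgeR adjusted p = 0.421).

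Other measured values moved with the tissue. Cluster 1 held 25 ciliary body macrophages and 1 of the cornea, and cluster 2 held 2 and 34. In wells of clusters 3, 7 and 8 alone, a choice made after the data were seen, 34 genes passed, 5 higher and 29 lower. Of the 50 genes higher over all wells 41 could be tested there, 40 kept their sign and 4 passed, with a median log2 difference of 1.53 over all wells and 1.18 there. The 4 were Ctsd, Fcrls, Hspa8 and Mir703. H2-Ob (edgeR adjusted p = 0.491) and Vcam1 (edgeR adjusted p = 0.195) kept their sign but did not pass. H2-Oa, Itgb7, Flt3 and Gcnt2 could not be tested there. In cluster 3 alone H2-Oa was at 225 CPM in the ciliary body and 61.1 CPM in the cornea, and Itgb7 at 276 and 69.8 CPM. Flt3 was at 160 and 52.4 CPM and Gcnt2 at 44.9 and 0 CPM, while in cluster 8 Flt3 was at 0 and 29.5 CPM. All cornea macrophages together held only 3 to 10 transcripts of each gene. Of the 117 lower genes 45 could be tested, 45 kept their sign and 20 passed, with medians of -2.41 and -2.49. The wells of clusters 3, 7 and 8 are part of the sums by which these genes were called. Kept signs are therefore no separate evidence in either direction. The corneal epithelium list summed to 0 and 1810 CPM in the ciliary body pairs and to 18294 and 25228 CPM in the cornea pairs. The 10 leading genes lower in the ciliary body, Col17a1, Cldn7, Sdc1, Aqp5, Krt13, Psca, S100a16, Prss23, Csta1 and Urah, are mostly genes of surface epithelium and had 0 transcripts in the P3 pair. Aqp5 was at 0 and 18.1 against 516 and 588 CPM. The part of epithelial transcripts in these differences was not tested.

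**Figure D5:**
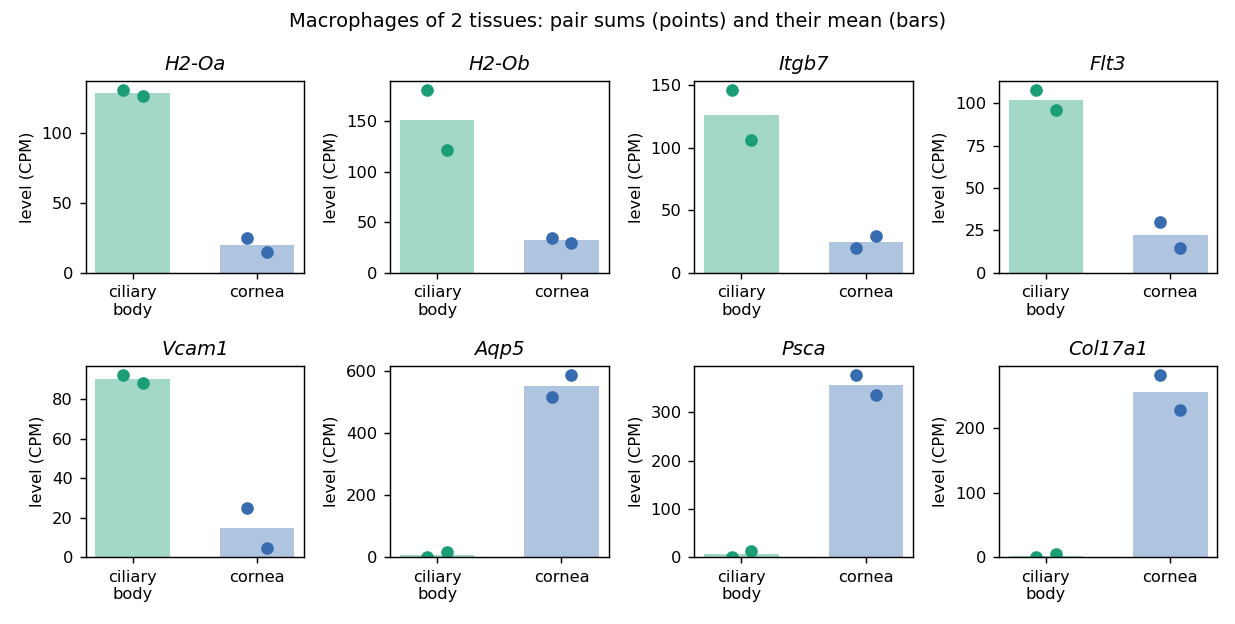
Level (CPM, linear axes from 0) of 5 genes higher and 3 lower in ciliary body than in cornea macrophages, with a point for each pair sum and a bar for the mean of 2. The 8 genes were taken from called genes whose pairs do not overlap between the 2 tissues, so their separation follows from that choice. Aqp5, Psca and Col17a1 are at or near 0 in the ciliary body.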

How the data were processed

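CD45+ cells were sorted into 384-well plates and counted by mCEL-Seq2 with molecular identifiers, per the labels' protocols, in libraries of 192 wells. Reads were aligned with BWA 0.6.2-r126, per the submitters' processing notes; the genome build, the annotation and the handling of shared reads were not given in the sources used here. Genes of near-identical families (the Klr, Gzm, Ms4a and MHC genes) are uncertain. The authors' deposited tables hold estimated counts of transcripts, not normalized. The deposited annotation lists 429 wells with their class and cluster, which are other values than counts. Gene names of the authors' eye table were taken from the library tables by exact row match (19676 of 19676 rows, without 1 cornea column whose well's counts came from its library table; 29 genes found only in that well were kept); 276 genes outside it, among them all mitochondrial genes and Gm10800, held 38.9% of the transcripts of annotated wells and stayed out of CPM.

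Counts were summed over wells per library and class, per cluster, or per library pair, and scaled to 1000000. Annotated wells entered whether or not they passed a filter of 1000 transcripts and 25% mitochondrial transcripts. No doublet caller was run, since each well received 1 sorted cell. The tissue test used rounded pair sums of ciliary body macrophages, cornea macrophages and control microglia in 1 edgeR 4.0.16 fit (filterByExpr, TMM, robust quasi-likelihood, Benjamini-Hochberg adjustment; R 4.3.3), with DESeq2 1.42.0 as an alternative. Whether pairs come from separate animals is not in the labels, and p-values may measure technical spread. In a test on simulated data of 4123 genes for the ciliary body against cornea comparison, 75 of 91 genes changed by a log2 of 2 were recovered, and 93 of 94 changed by 3, with 11 unchanged genes called. The simulated sums, microglia included, shared the same mean profile apart from the changed genes, and all genes had the same spread. The data are less even, so these rates need not hold for them.

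Genes named between classes were the 15 largest ratios each way with at least 100 CPM that were apart; per cluster the 10 largest ratios with at least 20 transcripts, higher in every library with 3 of its wells; and for tissues the 10 largest differences each way among called genes that reached 50 CPM and whose 2 tissues' pairs were apart. The 6 markers and up to 4 members of each of 32 lists were added, and a few further genes of wells and clusters were chosen after their values were seen, among them the pairs of genes looked for in the same well. Members and lists were chosen with earlier results of these data known. A ratio against 0 is a bound from 3 transcripts over the class. With 1 to 3 transcripts a 95% counting interval is given, which covers counting error and no spread between wells or libraries. Lyz2, Folr2, Vsig4 and H2-K1 were not analysed here.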

Additional observations from a re-analysis of the deposited data

Results flagged for a closer look

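Among 46 sets of 4 library values that were checked for a value far from the other 3, 3 had a gap above Dixon's 95% critical value, where chance flags about 1 in 20 such sets. Cd74 in the macrophages of library 1 was at 25170 CPM, above 18263 to 18674 CPM in the other libraries; without library 1 Cd74 remained above the joint class. Mmp12 in the joint class was at 27.0 CPM in library 3 and at 0 in the others, which is 2 transcripts. Gzma in the joint class was at 1941 CPM in library 2, against 258 to 498 CPM in libraries 1, 3 and 4, while macrophages held 2 Gzma transcripts over all libraries.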

How the results depend on the processing

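The tissue comparison was the least stable result. Of the 167 genes called (50 higher, 117 lower in the ciliary body), DESeq2 called 55 (7 and 48), and 54 of these were shared. Sums thinned to the smallest gave 47 (7 and 40), no filter on low counts 308 (117 and 191), and wells of clusters 3, 7 and 8 alone 34 (5 and 29). Genes called higher numbered 87 with ciliary body and cornea sums only, 104 over single libraries and 33 without TMM. Leaving out a pair gave 104 to 320 calls in all, 15 to 169 higher and 89 to 151 lower. The call count rose without the P4 pair of the ciliary body (320) and without the P2 pair of the cornea (293), and dropped without the P3 pair of the ciliary body (104) and the P5 pair of the cornea (126). In these fits the lone sum of a group is assumed to vary like the others. The cause was not tested. H2-Aa and Pf4, which were not called, changed sign in clusters 3, 7 and 8 (log2 -0.33 and 0.60). Leaving out a pair gave log2 values of -1.15 to 0.14 for Pf4.

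Against the joint class, 395 genes were apart. A ratio of at least 3 left 234 (67 higher, 167 lower), a minimum of 20 CPM gave 420 lower, TMM gave 247 higher and 140 lower, and all genes of the library tables gave 253 in all with 130 lower. Leaving out 1 library, which loosens the rule, gave 564 to 667 in all, 172 to 207 higher and 381 to 475 lower. Without clusters 1 and 3, 200 genes were higher, and Ccl22 (-1.30) and Cd209a (-1.75) changed sign on the log2 scale. With clusters 1 and 3 alone, Apoe (-1.43), Il1a (-0.22), Mrc1 (-0.52), Ms4a7 (-0.28) and Pf4 (-2.36) did. Apart from Ccl22 and Il1a, these genes are among those by which the clusters were picked out.

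Between clusters, weighting wells equally gave 68 leading genes for cluster 7 and 24 for cluster 8, and all genes of the library tables gave 102 for cluster 1. Leaving out 1 library gave 27 to 114 for cluster 1, 92 to 168 for cluster 3 and 59 to 147 for cluster 7. Library 4 held most of the change: without it the counts were 114, 92 and 59. The alternatives with all genes of the library tables, with chosen clusters and without the mast-rich well were added after seeing the data. Leaving out mitochondrial genes could change nothing, as the eye table held 0 of them. No paired analysis was possible because the ciliary body and cornea libraries share no pair prefix. The depth of the wells limits genes under about 50 CPM to a few transcripts per cluster.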

Other observations

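Smaller gene groups, described against the joint class without a test, differed in both directions. The transcription factor Irf4 was at 64.2 ± 8.62 CPM in macrophages and 15.1 ± 11.1 CPM in the joint class (SD, n = 4 libraries), while Cebpb, a factor of monocytes, was lower. Over all 4185 genes 2.92% were apart and higher and 6.52% apart and lower. Of 12 growth factor and matrix genes 3 were apart and higher, Pdgfb, Mmp14 and Plau, and 2 lower, Vegfa and Fn1. Of this list, 2 of 9 were higher and 1 lower with totals over all genes of the library tables. Of 13 cytokine receptors the decoy receptor Il1r2 was higher and Ifngr1 lower, counts near those shares. No gene of the lists of MHC class I presentation (8 genes with at least 50 CPM), Fc receptors (6) or lysosome (16) was apart over all macrophages by library totals. Of the lysosome list 3 of 16 were apart and higher under TMM and 3 with all genes of the library tables.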
